A study of Mus musculus with 24 samples.

Results

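Claudins and cadherins are the membrane proteins by which neighbouring epithelial cells seal to and hold on to each other. Transcripts of 10 such genes and their partners were followed in mouse retinal pigment epithelium (RPE), the pigmented cell layer between the retina and the choroid. The 10 genes were taken by name: the claudins Cldn1, Cldn2, Cldn10 and Cldn19, the cadherins Cdh1, Cdh2 and Cdh3, and the tight junction proteins Tjp1, Ocln and Cgn. All 10 were found among the 31053 gene identifiers of the count files. The rule used names and no measured value, but the list was drawn up with earlier results of these data known.

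RNA of isolated RPE cells gave 24 libraries. They form 6 groups of 4: controls and mutants aged 11 days (P11), 29 days (P29) and 3 months (3M). Every animal carried Dct-Cre, a recombinase driver that acts in pigment cells and therefore not in the RPE alone. Control animals had the driver, and mutant animals had the driver together with the floxed Ift20 gene, whose product carries cargo into growing cilia as part of intraflagellar transport. No agent was given, the strain background was mixed, and sex was not collected. Libraries of a group are labelled as biological replicates 1 to 4, but whether 1 stands for 1 animal or for pooled animals is left unsaid, and the RNA is described as mixed to a set concentration. The p-values therefore cover only library-to-library spread, part of which may be technical.

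Tight junctions ring the apical end of the sides of epithelial cells and limit what passes between the cells. In the RPE they form the outer blood-retinal barrier, between the leaky vessels of the choroid and the photoreceptors. Claudins set how tight and how ion-selective the seal is, while adherens junctions, built from cadherins and catenins, hold the cells together just below.

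Start regions are shown first for 3 members, Cldn1, Cldn2 and Cgn, because all 3 rose between P11 and P29 in both genotypes. Promoter sequences came from RefSeq (build GRCm38.p6), which had 10 entries for 7 of the 10 members. None was found in that table for Cdh1, Cdh2 or Cdh3. Each run is the 250 bases before the annotated start, 5′ to 3′ on the gene's own strand. Capitals mark exact matches on either strand to 7 motifs. These were TATAAA of the core promoter, CCAAT bound by NF-Y, and GGGCGG bound by Sp factors. The others were CAGGTG, an E-box bound by Snai and Zeb factors, the further E-boxes CACGTG and also CATGTG, and TAATCC, a site of Otx factors. No 2 matches overlap in the windows printed. The 3 windows read:
Cldn1 (minus strand, chr16:26371840-26372089): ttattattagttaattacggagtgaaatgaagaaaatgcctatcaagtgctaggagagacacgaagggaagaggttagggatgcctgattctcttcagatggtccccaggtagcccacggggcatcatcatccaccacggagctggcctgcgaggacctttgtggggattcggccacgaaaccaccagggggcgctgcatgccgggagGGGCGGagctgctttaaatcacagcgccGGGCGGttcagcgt
Cldn2 (plus strand, chrX:139800558-139800807): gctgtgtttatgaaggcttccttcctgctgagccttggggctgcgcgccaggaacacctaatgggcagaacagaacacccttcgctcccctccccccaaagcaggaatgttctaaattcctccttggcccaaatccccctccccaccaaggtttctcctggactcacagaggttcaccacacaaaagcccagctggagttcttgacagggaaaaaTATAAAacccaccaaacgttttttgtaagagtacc
Cgn (minus strand, chr3:94786483-94786732): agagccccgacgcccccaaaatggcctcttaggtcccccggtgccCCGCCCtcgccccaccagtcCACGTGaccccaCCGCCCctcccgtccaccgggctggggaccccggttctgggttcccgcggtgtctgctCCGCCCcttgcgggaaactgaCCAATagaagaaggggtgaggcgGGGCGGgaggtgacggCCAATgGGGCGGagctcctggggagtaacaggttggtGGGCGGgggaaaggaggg

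The windows of these 3 genes were unlike each other. Cldn1 had GGGCGG on its own strand, with the first base 42 and 14 bases before the start, and no match to the other 6 motifs. Cldn2 had TATAAA 35 bases before the start, where 12.4% of the 32851 promoters in the table hold that motif, and no GGGCGG. Cgn had 6 matches to GGGCGG, counting both strands, 2 to CCAAT and 1 to CACGTG at 185 bases. GGGCGG was in 32.7% of all promoters, CCAAT in 33.8% and CACGTG in 6.02%. TAATCC (6.25% of promoters) matched in none of the 10 windows, which cover 7 members, and CAGGTG (17.2%) matched only in 1 of the 2 for Ocln. A match is a description of letters and no sign that a factor binds there.

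Cldn10 has 2 annotated starts on chromosome 14, whose products differ in their first exon and, in textbook accounts, in the ion they let pass. The windows of the pair differ sharply in base composition, and they are shown because the counts below cannot tell the products apart:
Cldn10, upstream start (plus strand, chr14:118787621-118787870): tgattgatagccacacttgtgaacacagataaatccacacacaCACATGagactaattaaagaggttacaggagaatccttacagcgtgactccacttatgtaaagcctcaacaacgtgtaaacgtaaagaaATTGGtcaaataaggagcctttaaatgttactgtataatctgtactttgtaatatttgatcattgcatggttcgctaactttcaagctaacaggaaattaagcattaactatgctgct
Cldn10, downstream start (plus strand, chr14:118854700-118854949): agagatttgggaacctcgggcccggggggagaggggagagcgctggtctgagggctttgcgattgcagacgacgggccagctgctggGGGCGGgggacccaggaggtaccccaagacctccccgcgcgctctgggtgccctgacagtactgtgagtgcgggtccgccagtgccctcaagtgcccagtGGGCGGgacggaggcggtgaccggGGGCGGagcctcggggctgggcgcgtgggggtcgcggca

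The upstream window of Cldn10 was 36% G or C, with 1 CCAAT and 1 CATGTG match (12.3% of promoters hold CATGTG). The downstream window was 72.4% G or C, with 3 GGGCGG matches. The 3 coding transcripts of Cldn10 do not share a first exon but do share a last exon. The library kit reads near the 3′ end, so the values below are sums over the Cldn10 products.

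In the GRCm38 annotation Cldn1 (ENSMUSG00000022512) lies on the minus strand of chromosome 16 from 26356642 to 26371841. Cdh3 (ENSMUSG00000061048) occupies 106510891 to 106557297 on chromosome 8, plus strand, and Cdh1 (ENSMUSG00000000303) follows it in the same orientation from 106603351 to 106670246, with 46.1 kb between the pair. Cldn2 (ENSMUSG00000047230) spans 139800828 to 139811386 on the X chromosome, and Cgn (ENSMUSG00000068876) spans 94760069 to 94786492 on chromosome 3. No other annotated gene lay over the 3′ end of any of the 10 members. The coding transcripts of Tjp1, Ocln and Cgn do not all end in 1 shared last exon, so their values sum over different ends.

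Libraries held 1513440 to 2889946 counts in genes (median 2386799). Levels are given as CPM, the count scaled to the library total with TMM factors. The kit gives 1 tag per transcript, so CPM was not divided by transcript length when levels of different genes were set side by side. Per library, 3 counts (taken as the floor) equalled 1.04 to 1.98 CPM, for counting error only. RPE identity was clear in every library: all 18 RPE markers had counts in every group, summing to 21778 to 24301 CPM at P11, 45666 to 53821 at P29 and 69930 to 73530 at 3M. The targeted gene Ift20 was at 106, 93.8, 60.7 and 149.8 CPM in P11 controls and 76.7, 94.2, 90.7 and 80.8 in mutants. At P29 it was at 121, 84.9, 124 and 102 against 70.1, 57.9, 88.8 and 68.6, and at 3M at 118, 159.9, 126 and 133 against 115, 116, 117 and 97.4. Its edgeR adjusted p was 0.353, 0.0112 and 0.547 at the 3 ages. No source used here names the floxed exons, and a 3′ tag may lie outside them, which makes this no test of the labels.

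Cldn1 was the most abundant member in all 6 groups, and its range overlapped that of no other member in any group. Over the 24 libraries the mean level was 361 CPM for Cldn1, 65.0 for Cdh3, 58.3 for Cldn2, 32.2 for Cgn and 30.4 for Tjp1. Lower down came Cdh2 at 21.7, Cldn10 at 14.2, Ocln at 7.37, Cdh1 at 3.74 and Cldn19 at 0.309 CPM. In P11 controls the order was Cldn1, Cdh3, Tjp1, Cdh2, Cldn2, Cgn, Cldn10, Ocln, Cdh1, Cldn19. Neighbours from Tjp1 to Cldn2 and from Cgn to Cdh1 overlapped in range there, so their order is not settled. In 3M controls Cldn2 had moved to the second place at 84.7 CPM ± 10.8 (SD, n = 4), though its range overlapped that of Cdh3 at 63.9 ± 15.5.

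**Figure D1:**
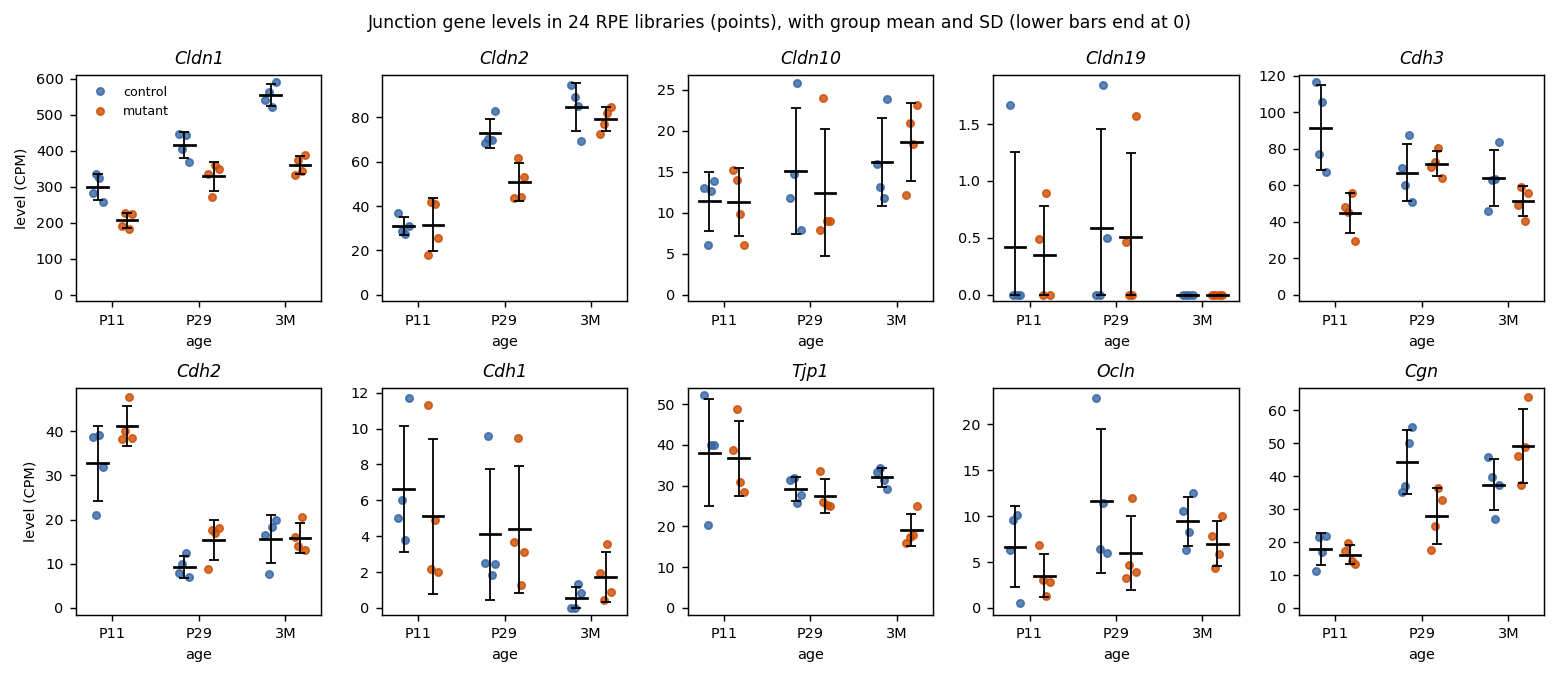
Level of each of the 10 genes in every library (y axis, CPM; 1 panel per gene, each with its own linear scale) for controls and mutants at P11, P29 and 3M (x axis); points are libraries, and bars give the group mean ± SD of 4 libraries, with the lower end stopped at 0. Cldn1 mutant libraries lie under every control library at each age, Cdh3 mutant libraries do so at P11, and Cldn19 has no count at 3M.

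Mutants had less Cldn1 than controls at all 3 ages, and less Cdh3 at P11. Of the 9 members that passed the filter on low counts, 2 fell at P11 (Cldn1 and Cdh3), 1 fell at P29 (Cldn1) and 1 fell at 3M (Cldn1). No member rose at any age by edgeR, DESeq2 or voom, and at an unadjusted p under 0.05 the rises numbered 0, 1 (Cdh2) and 0. Calls rest on edgeR's quasi-likelihood test over 12303 genes, with a Benjamini-Hochberg adjusted p below 0.05. Of all genes tested, 6.93% were called at P11, 2.84% at P29 and 2.61% at 3M, and 3.67%, 1.21% and 0.48% were called lower. An unadjusted p under 0.05 was reached by 18.6%, 11.4% and 11.3%. The median log2 fold change of the 9 members was -0.13, -0.28 and -0.10, against -0.0016, -0.0007 and 0.03 over all genes. The 9 include every member but Cldn19, which had 19 counts in all.

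**Figure D2:**
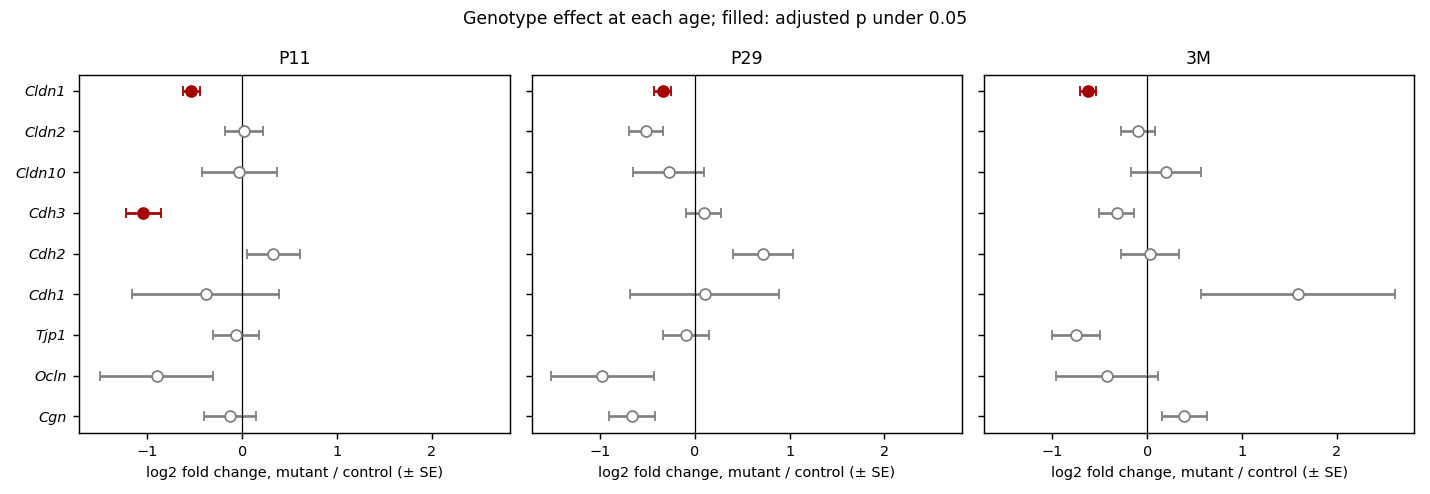
Log2 fold change of mutant over control (x axis, ± SE) for the 9 tested genes at P11, P29 and 3M (3 panels); filled red points have an edgeR adjusted p under 0.05. Cldn1 is filled in each panel at -0.54, -0.34 and -0.62, and Cdh3 only at P11, at -1.04.

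Cldn1 encodes a claudin that tightens the seal and is best known for the skin barrier. In replicate order its level at P11 was 281, 334, 325 and 258 CPM in controls and 192, 225, 184 and 223 CPM in mutants. Every mutant library was under every control library. The log2 fold change was -0.54 (SE 0.09, 95% interval -0.72 to -0.36, edgeR adjusted p = 1.29e-05), so the level fell by 31.04%. Groups did not overlap for 10.3% of all genes at P11, in either direction.

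At P29 the Cldn1 levels were 446, 405, 444 and 368 CPM in controls against 337, 271, 361 and 349.55 CPM in mutants. The groups again did not overlap, with the highest mutant library, at 361 CPM, just under the lowest control. The log2 fold change was -0.34 (SE 0.09, 95% interval -0.51 to -0.16, edgeR adjusted p = 0.0126), so the level fell by 20.9%. Leaving out control replicate 1, control replicate 3 or mutant replicate 2 ended the call (edgeR adjusted p = 0.0831, 0.0734 and 0.193). It was also lost when libraries were scaled to their RPE marker counts (log2 fold change -0.16, adjusted p = 0.426).

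At 3M the Cldn1 levels were 542, 563, 521 and 591 CPM in controls and 333, 374, 344 and 388 CPM in mutants. All 4 control libraries were above all 4 mutant libraries. The log2 fold change was -0.62 (SE 0.09, 95% interval -0.80 to -0.45, edgeR adjusted p = 7.78e-08), so the level fell by 35.1%. The genotype effect on Cldn1 was not shown to differ between ages: the difference was 0.20 (SE 0.13, adjusted p = 0.531) for P29 against P11 and -0.29 (SE 0.12, adjusted p = 0.416) for 3M against P29.

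Of the 12303 genes tested, 10 (0.0813%) were called lower in mutants at all 3 ages. Beside Cldn1 they included Clic6, Rpe65, Sema3c, Slc16a1, Slc16a9, Slco1c1, Timp3 and Tmem229b. Rpe65 is the isomerase of the visual cycle, and Slc16a1 is a monocarboxylate transporter. Another 27 genes (0.219%) were called higher at all 3 ages, no member among them.

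The makeup of the libraries moved with genotype beside these values. The summed level of the 18 RPE markers was 23250 to 24301 CPM in P11 controls and 21778 to 22688 in mutants, and 52745 to 53821 against 45666 to 48101 at P29. Of the 17 tested, edgeR called 10 lower and 0 higher at P11, 5 lower and 3 higher at P29, and 1 lower and 0 higher at 3M. The 4 with the smallest p at P11 were Rpe65 (log2 fold change -0.32), Pmel (-0.49), Lrat (-0.37) and Tyrp1 (-0.48). Ttr, at a mean of 24501 CPM over the 24 libraries, weighs most in these sums and in the scaling to them. At 3M the sums were 70212 to 73250 in controls and 69930 to 73530 in mutants, of which Ttr alone made up 35233 CPM on average in controls. Rpe65, also in that list, was lower in mutants at 3M (log2 fold change -0.15, edgeR adjusted p = 0.0306). Rod markers (16 of 16 with counts in every group) summed to 15888 to 17051 against 19350 to 19838 CPM at P11, 13635 to 14158 against 19223 to 20608 at P29 and 5042 to 5516 against 8867 to 9295 at 3M. With libraries scaled to RPE marker counts Cldn1 stayed lower at P11 (log2 fold change -0.42, edgeR adjusted p = 0.00125) and at 3M (-0.61, adjusted p = 7.2e-07). Lens markers (16 of 16 with counts at P11 and P29) summed to 335 to 378 CPM in P11 controls and 181 to 229 in mutants, where 6 of 16 were called lower by edgeR. At P29 they summed to 307 to 329 against 1642 to 1728 CPM, and 15 of 16 were called higher, with Cryba1 at 4.07 CPM in controls and 196 in mutants. At 3M the lens sums were 437 to 470 and 471 to 493 CPM, with 10 of 16 markers at a count in controls and 15 in mutants. Cryab, at a mean of 302 CPM over the 24 libraries, weighs most in the lens sums. Mitochondrial transcripts took 10.2% to 11.1% of counts in P11 mutants against 7.30% to 8.79% in P11 controls, and reads outside genes 26.5% to 27.5% against 22.7% to 24.1%. The part of these shifts in the Cldn1 result was not tested, and in bulk RNA fewer RPE cells and less RNA per cell cannot be told apart.

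Cldn2 encodes a claudin that forms pores for small cations and water. Its P11 levels were 36.8, 28.9, 27.2 and 30.8 CPM in controls and 17.7, 41.9, 41.1 and 25.6 CPM in mutants, where the mutant libraries were the more spread. At P29 they were 68.5, 70.1, 69.7 and 82.7 CPM against 43.8, 61.8, 44.0 and 53.3 CPM. Every P29 mutant library lay below every control, as for 7.75% of all genes in either direction, but the difference did not pass the test (log2 fold change -0.51, SE 0.18, 95% interval -0.87 to -0.16, edgeR adjusted p = 0.127). At 3M the groups overlapped, at 69.5 to 94.7 CPM in controls and 72.7 to 84.7 in mutants (adjusted p = 0.944).

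Cldn10, the second pore-forming claudin of the set, differed little between genotypes against a wide spread. Its group means ran from 11.3 to 18.6 CPM, and the groups overlapped at each age. The 95% interval of its log2 fold change was -0.81 to 0.74 at P11, -1.02 to 0.47 at P29 and -0.53 to 0.93 at 3M. Adjusted p was 0.981, 0.877 and 0.946 by edgeR.

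Cldn19 is described as the leading claudin of cultured human RPE. Here it had 19 counts over all 24 libraries, in 7 of them, and was at 0 in all 8 libraries at 3M. By group it had 5 and 3 counts at P11 in controls and mutants and 6 and 5 at P29. A count of 0 over a 3M group allows a level of up to 0.303 CPM in controls and 0.305 in mutants. It was not tested, and a genotype difference was not detectable at this depth.

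Cdh3 encodes P-cadherin, whose loss in people causes sparse hair with macular degeneration. It was the most abundant of the 3 cadherins in every group mean. At P11 it stood at 116, 77.0, 106 and 66.9 CPM in controls and at 48.2, 45.4, 55.8 and 29.6 CPM in mutants. The groups did not overlap, and the highest mutant library was below the lowest control. The log2 fold change was -1.04 (SE 0.19, 95% interval -1.41 to -0.68, edgeR adjusted p = 3.17e-05), so the level fell by 51.4%. With libraries scaled to RPE marker counts it was -0.93 (edgeR adjusted p = 0.000334). Stromal markers (11 of 11 with counts) moved the same way at P11, at 3341 to 3565 CPM in controls and 2621 to 2878 in mutants, and their part in the Cdh3 result was not tested.

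The groups overlapped in the older animals. At P29 Cdh3 was at 69.6, 60.2, 87.4 and 50.5 CPM in controls and 70.1, 72.5, 80.3 and 63.9 CPM in mutants, with the mutant libraries inside the control range (log2 fold change 0.09, 95% interval -0.26 to 0.45). At 3M it was at 45.9, 62.8, 63.2 and 83.7 CPM against 49.3, 59.2, 40.4 and 55.9 CPM (-0.32, 95% interval -0.68 to 0.04). The genotype effect differed between P29 and P11 by 1.13 (SE 0.26, 95% interval 0.63 to 1.64, edgeR adjusted p = 0.00316), where 2.63% of all genes were called, 1.45% in that direction. Cdh3 was the 1 member of 9 called in that test. Between 3M and P29 edgeR, DESeq2 and voom called 0 of 9 members for a change of the genotype effect, against 0.853% of all genes by edgeR, and 2 members, beside 9.27% of all genes, had an unadjusted p under 0.05 by edgeR.

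Cdh2 encodes N-cadherin, the cadherin of neural tissue and mesenchyme. In P11 controls it was at 38.8, 21.1, 39.2 and 31.9 CPM, and in mutants at 38.3, 40.1, 47.8 and 38.6 CPM. At P29 it was at 7.85, 9.96, 12.5 and 6.93 CPM against 8.76, 17.7, 17.1 and 18.03 CPM, where 3 of 4 mutant libraries lay above every control. The log2 fold change at P29 was 0.72 (SE 0.32, 95% interval 0.10 to 1.34) and did not pass the test (edgeR adjusted p = 0.329). Of 15 inner retinal neuron markers tested at P29, 3 were called higher in mutants and 0 lower, with a median log2 fold change of 0.49. The 3 included Calb2 (4.40 against 15.2 CPM) and Nefl (14.3 against 37.3 CPM). Sums of the 16 listed were 751 to 850 CPM in controls (Grm6 and Onecut1 at 0) and 723 to 818 in mutants (Onecut1 at 0). Slc6a9 and Trpm1, at means of 463 and 181 CPM over the 24 libraries, weigh most in those sums. Trpm1 is also in the list of RPE markers. The part of neuronal transcripts, and of the lens transcripts given above, in the Cdh2 values was not tested. At 3M the means were 15.5 ± 5.43 CPM in controls and 15.9 ± 3.38 in mutants (SD, n = 4).

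Cdh1 encodes E-cadherin, the cadherin of most other epithelia. It was near the floor throughout, with 53 and 44 counts over the P11 control and mutant groups, 41 and 43 at P29, and 5 and 16 at 3M. Its log2 fold change of 1.59 at 3M had a 95% interval from -0.41 to 3.59 (edgeR adjusted p = 0.636). Transcripts of surface epithelium, which is rich in E-cadherin, moved with genotype: the 12 markers summed to 0.668 to 5.31 CPM in P11 controls and 10.7 to 30.5 in mutants, 0.369 to 6.07 against 59.9 to 84.8 at P29, and 1.31 to 5.89 against 13.1 to 24.3 at 3M. Of these markers 4, 8 and 5 had a count in the controls and 9, 9 and 10 in the mutants at the 3 ages, Lypd3 being at 0 in every group and Krt14 in all but the mutants at P29 and 3M. Their part in the Cdh1 values was not tested.

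Tjp1 encodes ZO-1, the scaffold that ties claudins and occludin to actin. It was at 52.1, 20.5, 39.9 and 39.8 CPM in P11 controls and 38.8, 48.8, 30.8 and 28.4 CPM in mutants, and at 25.8 to 31.9 against 25.1 to 33.7 CPM at P29. At 3M controls had 33.2, 34.3, 31.4 and 29.1 CPM and mutants 16.03, 17.4, 17.96 and 24.9 CPM. The 3M groups did not overlap, as for 8.07% of all genes, yet the log2 fold change of -0.75 (SE 0.25, 95% interval -1.24 to -0.25) missed the threshold at an edgeR adjusted p of 0.109. It passed when only the 8 libraries of that age were fitted (-0.77, edgeR adjusted p = 0.0455).

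Ocln encodes occludin, the first membrane protein found in tight junctions, and it was scarce. Its means were 6.66 ± 4.41 and 3.53 ± 2.36 CPM at P11, 11.6 ± 7.87 and 5.96 ± 4.05 at P29, and 9.41 ± 2.69 and 7.01 ± 2.47 at 3M (controls and mutants, SD, n = 4). The mutant mean was the lower at each age, but the groups overlapped each time and edgeR adjusted p was 0.433, 0.528 and 0.894. The 95% intervals of the log2 fold change were wide, at -2.07 to 0.26, -2.03 to 0.09 and -1.48 to 0.64.

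Cgn encodes cingulin, which links the junction plaque to myosin. At P29 it was at 35.3, 37.1, 50.1 and 55.0 CPM in controls and 17.5, 24.8, 36.3 and 32.9 CPM in mutants, with 1 mutant library inside the control range. The log2 fold change of -0.66 (SE 0.24, 95% interval -1.14 to -0.19) did not pass the test (edgeR adjusted p = 0.151). At 3M the order of the means was the opposite, 37.5 ± 7.85 CPM in controls and 49.2 ± 11.1 in mutants, again short of the threshold (log2 fold change 0.39, adjusted p = 0.591). The difference between these genotype effects was 1.05 (SE 0.34, edgeR adjusted p = 0.135).

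More members were called between P11 and P29 than between genotypes. From P11 to P29 in controls 3 of 9 members rose (Cldn1, Cldn2 and Cgn) and 2 fell (Cdh2 and Cdh3), where 32% of all genes were called, 16.5% higher and 15.6% lower. In mutants 4 rose (Cldn1, Cldn2, Cgn and Cdh3) and 1 fell (Cdh2), against 31.7% of all genes, 16.4% higher and 15.2% lower. Each age comparison shares libraries with the genotype comparisons, so the sets of values are not independent of each other.

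**Figure D3:**
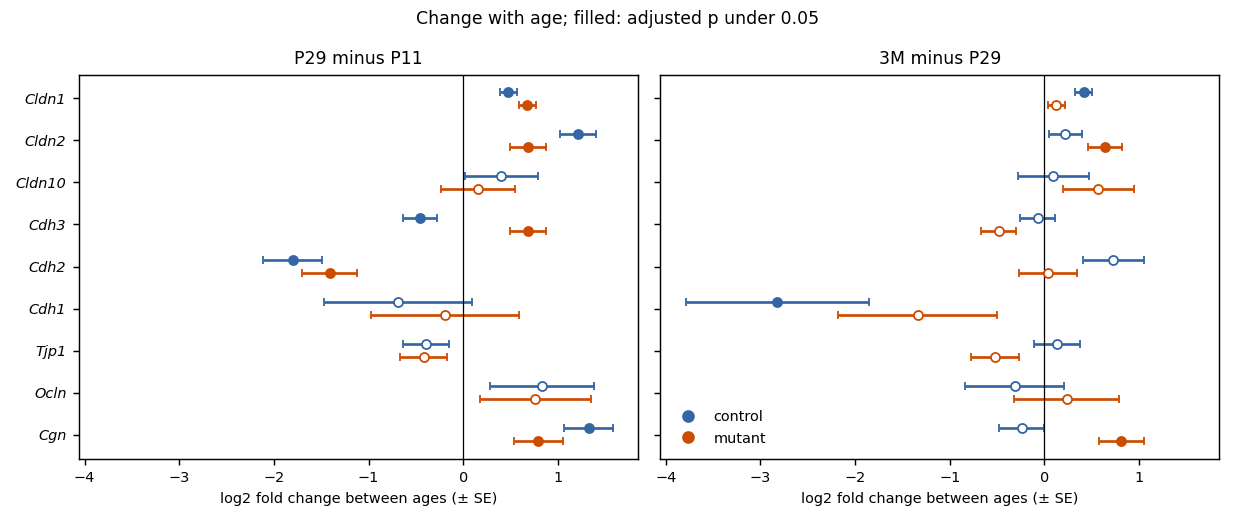
Log2 fold change with age (x axis, ± SE) for the 9 tested genes in controls and mutants, P29 minus P11 and 3M minus P29; filled points have an edgeR adjusted p under 0.05. Cldn1, Cldn2 and Cgn lie to the right of 0 and Cdh2 to the left in both genotypes between P11 and P29, while Cdh3 falls in controls and rises in mutants.

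Among the claudins, Cldn1 rose by 0.48 (SE 0.09, edgeR adjusted p = 7.09e-06) in controls and by 0.68 (SE 0.09, adjusted p = 9.48e-10) in mutants on the log2 scale between P11 and P29. Control means went from 299.6 CPM ± 36.05 to 416 ± 37.1 (SD, n = 4), and mutant means from 206 ± 21.5 to 329 ± 40.4. From P29 to 3M Cldn1 rose further in controls, to 554 ± 29.9 CPM (log2 change 0.41, adjusted p = 0.000208), which was 1 of 2 members called where 12% of all genes were called, 8.5% down and 3.49% up. In mutants it reached 359.8 ± 25.6 CPM (0.13, adjusted p = 0.425). Cldn2 rose from 30.9 ± 4.17 to 72.8 ± 6.67 CPM in controls from P11 to P29 (log2 change 1.21, adjusted p = 1.11e-07). In mutants Cldn2 rose in both steps, from 31.6 ± 11.9 to 50.7 ± 8.64 and then to 79.2 ± 5.34 CPM (0.68, adjusted p = 0.00306, and 0.64, adjusted p = 0.0082).

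Cdh2 was lower at P29 than at P11 in both genotypes, while Cdh3 fell in controls and rose in mutants. Cdh2 fell in controls from 32.7 ± 8.48 to 9.32 ± 2.49 CPM between P11 and P29 (log2 change -1.80, SE 0.31, edgeR adjusted p = 9.77e-07) and in mutants from 41.2 ± 4.46 to 15.4 ± 4.44 CPM (-1.41, SE 0.29, adjusted p = 4.97e-05). The P11 and P29 libraries of Cdh2 did not overlap in either genotype, as for 27.6% of all genes in controls and 31.3% in mutants. Cdh3 rose in mutants from 44.7 ± 11.0 to 71.7 ± 6.78 CPM (0.68, SE 0.19, adjusted p = 0.00225). In controls Cdh3 fell from 91.5 ± 23.3 to 66.9 ± 15.7 CPM (-0.45, SE 0.18, adjusted p = 0.0437), with overlapping groups. The control call was lost without control P11 replicate 1 (adjusted p = 0.254) or 3 (0.13), without control P29 replicate 1 (0.0665), 2 (0.119) or 4 (0.186), and with voom (0.0746).

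Cdh1 fell in controls from P29 to 3M, from 41 to 5 counts per group (log2 change -2.82, SE 0.97, edgeR adjusted p = 0.0389). The call rests on few counts: without control P29 replicate 2, which held 24 of the 41, the change was -1.98 (adjusted p = 0.28). It was also lost without control 3M replicate 1 (0.13), 2 (0.128) or 4 (0.0656), with voom (0.0945) and with the replicate number as a block (0.0726).

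Cgn rose in controls from 17.97 ± 4.92 to 44.4 ± 9.68 CPM between P11 and P29 (log2 change 1.32, SE 0.26, edgeR adjusted p = 1.34e-05). In mutants it rose in 2 steps, from 16.1 ± 2.84 to 27.9 ± 8.43 CPM (0.79, adjusted p = 0.0121) and on to 49.2 ± 11.1 CPM at 3M (0.81, adjusted p = 0.0125). The first mutant step lost its call without mutant P29 replicate 3 (adjusted p = 0.0722), and the second without mutant P29 replicate 1 (0.0935) or mutant 3M replicate 4 (0.106). Cldn2 and Cgn were the 2 members called from P29 to 3M in mutants, where 12.7% of all genes were called, 5.44% higher. Tjp1 and Ocln passed in no age step, with Tjp1 changes of -0.40 and -0.42 between P11 and P29 in controls and mutants (adjusted p = 0.219 and 0.198).

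The makeup of the libraries also moved with age. In controls the RPE sum was 23250 to 24301 CPM at P11 and 70212 to 73250 at 3M. Endothelial markers (13 listed, all with counts at P11) summed to 572 to 592 CPM at P11 and 25.7 to 44.0 at 3M, with Esam and Tie1 at 0 in 3M controls. Stromal markers (11 of 11 with counts) summed to 3341 to 3565 CPM at P11 and 667 to 1313 at 3M. Of 15 inner retinal neuron markers tested 13 fell from P11 to P29 in controls (median log2 change -2.59) and 11 in mutants (-1.72). Of 16 lens markers 9 fell and 1 rose in controls from P11 to P29, whereas in mutants 15 rose (median 4.18) and from P29 to 3M 14 fell. Their part in the age changes of Cdh2, which neural and mesenchymal cells use, and of the other members was not tested.

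Shares within each family give the same data without the library total. Cldn1 made up 84.5% to 90.6% of the tags of the 4 claudins in P11 control libraries, and 78.0% to 87.6% in mutants. At P29 the claudin shares of Cldn1 overlapped, with 80.2% to 84.7% in controls and 75.9% to 87.2% in mutants. At 3M its share was 83.0% to 86.4% in controls and 77.4% to 79.7% in mutants, without overlap, and that of Cldn2 was 10.2% to 14.5% against 16.3% to 18.5%. Among the 3 cadherins at P11, Cdh3 held 60.6% to 74.0% in controls and 42.2% to 51.7% in mutants, and Cdh2 20.2% to 28.8% against 39.2% to 54.9%. By P29 the cadherin shares overlapped, with Cdh3 at 75.5% to 87.1% in controls and 72.7% to 84.9% in mutants. These shares were computed from the counts already tested and are given with no test. Within a family the shares are tied, so a lower share of 1 gene means a higher share of the others. The Cdh2 level itself was not called at P11 (log2 fold change 0.33, edgeR adjusted p = 0.586). Nor was the Cldn2 level at 3M (-0.10, edgeR adjusted p = 0.944).

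**Figure D4:**
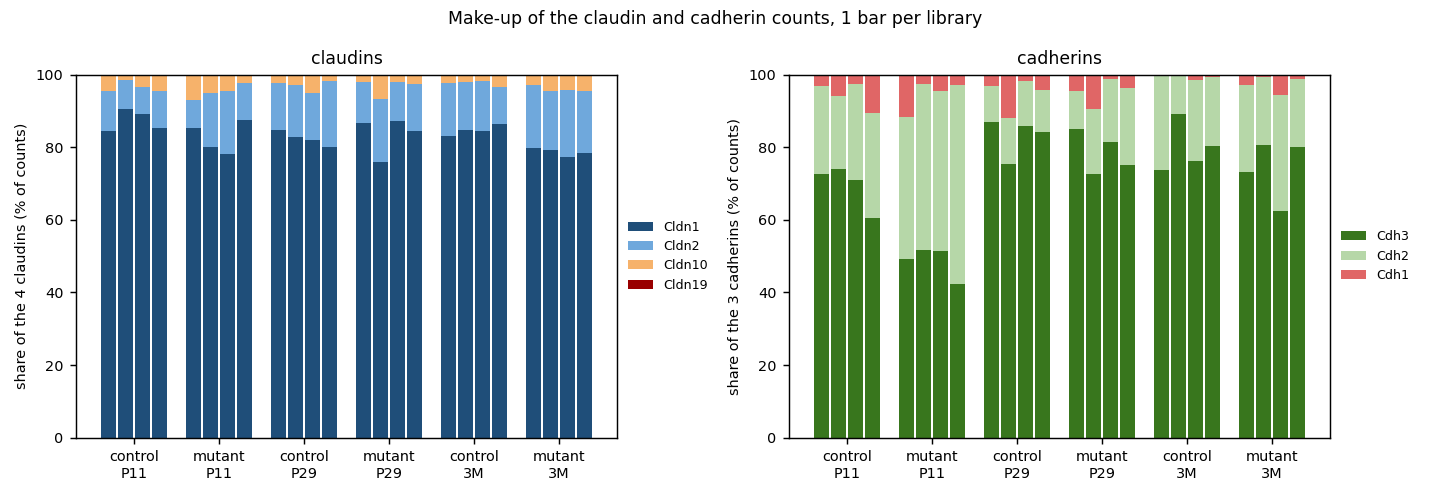
Share of each gene (y axis, percent of the family's counts) among the 4 claudins (left) and among the 3 cadherins (right), with 1 stacked bar per library and the 6 groups along the x axis. Cldn1 fills most of each claudin bar, and the Cdh2 part of the cadherin bars is larger in the P11 mutants, at 39.2% to 54.9%, than in the P11 controls, at 20.2% to 28.8%. The level of Cdh2 was not called at P11 (edgeR adjusted p = 0.586), while that of Cdh3 was lower.

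The genes most like a member were sought for the 5 members with a mean of at least 10 CPM and group means spread over at least 1 log2 unit. Likeness was the root mean square difference in log2 CPM, each gene centred on its own mean, over the 24 libraries and 8723 genes. For Cldn1 the nearest were Slc16a1 (0.16), Plxnb2 (0.19) and Wls (0.20), where the median gene stood at 0.60. For Cldn2 they were Sgms1 (0.26), Car12 (0.26) and Cops9 (0.27), and for Cgn Vegfb (0.31), Pld5 (0.32) and Laptm4a (0.32). For Cdh3 they were Tsc22d4 (0.27), Serpinh1 (0.28) and Ctsl (0.30), and for Cdh2 H3f3b (0.43), mt-Nd1 (0.47) and Cspp1 (0.47). All of these share libraries and depth, and the values describe the pattern only.

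The other genes of the junction were followed in 9 lists. Beside their counts stand the shares of all genes called between genotypes: 6.93% at P11, 2.84% at P29 and 2.61% at 3M. Called lower were 3.67%, 1.21% and 0.48%. Of 24 other claudins listed only 5 passed the filter. At P11 2 of the 5 fell, Cldn5 (log2 fold change -2.58, SE 0.65, edgeR adjusted p = 0.00496) and Cldn11 (-2.68, SE 0.77, adjusted p = 0.0166), the claudins of endothelium and of myelin. Cldn5 had 37 counts in P11 mutants and 200 in controls. Endothelial markers (13 of 13 with counts) summed to 572 to 592 CPM in P11 controls and 256 to 313 in mutants. Myelin and Schwann cell markers summed to 568 to 678 against 159 to 207 CPM, with 12 and 10 of 12 at a count and Gjc3 and Mog at 0 in the mutants. Each of these marker lists holds one of the pair, and the part of those cells in the Cldn5 and Cldn11 results was not tested. Cldn11 lost its call without control P11 replicate 3 or mutant P11 replicate 3 or 4 (highest adjusted p = 0.0837). By edgeR, DESeq2 and voom 0 of the 5 passed at P29 or 3M, with 1 and 0 at an unadjusted p under 0.05 by edgeR.

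Of 22 other tight junction genes tested, 1 rose and 1 fell at P11, 2 rose and 1 fell at P29, and 1 rose at 3M. Of all genes 6.93%, 2.84% and 2.61% were called at these ages in either direction. Mtdh, a multifunctional protein also found at junctions, rose by 0.49 (SE 0.09, edgeR adjusted p = 8.98e-05) at P11. Esam, an adhesion molecule of endothelium, fell at P11 (-1.56, adjusted p = 0.0155) and rose at P29 (2.19, adjusted p = 0.0047). At 3M Esam had 21 counts in mutants and 0 in controls. The P11 call of Esam was lost without control replicate 1 or 3 or mutant replicate 1 (highest adjusted p = 0.0885). Ybx3 (0.29) and Jam3 (-0.55) were the other P29 calls. Ybx3 lost its call without control or mutant P29 replicate 3, and Jam3 without control replicate 1, 3 or 4 or mutant replicate 1, 2 or 3.

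Of 22 genes of the apical polarity complexes, which mark the free face of the cell, 2 fell at P11, 1 rose and 1 fell at P29, and 1 rose and 2 fell at 3M. The shares of all genes called were 6.93%, 2.84% and 2.61%. Ezr, which anchors actin in apical microvilli, went from 555 CPM ± 38.2 in controls to 456 ± 31.9 in mutants at P11 (SD, n = 4; log2 fold change -0.28, edgeR adjusted p = 0.0021). Its binding partner Slc9a3r1 was lower at P29 (-0.48, adjusted p = 0.00659) and 3M (-0.52, adjusted p = 0.00289), the P29 call being lost without mutant replicate 2 (0.0985). Crb1, which acts at the junctions of photoreceptors and Mueller glia and moved with the rod sums given above, was higher at P29 (1.09, adjusted p = 0.00201) and 3M (1.43, adjusted p = 0.000523), the P29 call being lost without mutant replicate 3 (0.0569). The part of the rod transcripts in the Crb1 values was not tested. Cdc42 (-0.37 at P11) lost its call without control P11 replicate 2, and Dlg1 (-0.56 at 3M) without control 3M replicate 1 or 4 or mutant 3M replicate 1 or 3.

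Among the partners of cadherins, 2 of 19 catenin, nectin and adherens genes fell at P11, where 3.67% of all genes were called lower. Ctnna1, the catenin that couples cadherins to actin, fell by 0.46 on the log2 scale (SE 0.10, edgeR adjusted p = 0.00134). Zyx fell by 1.08 (adjusted p = 0.0133) and lost its call without control P11 replicate 2. At P29 and 3M edgeR, DESeq2 and voom called 0 of these 19, with 0 and 4 at an unadjusted p under 0.05 by edgeR. Of 7 other cadherins edgeR called 0 at each of the 3 ages, with 1, 2 and 2 at an unadjusted p under 0.05, while DESeq2 and voom each called 1 at P11 and 0 later. Of 3 desmosome genes edgeR, DESeq2 and voom called 0 at each age, with 1, 1 and 0 at an unadjusted p under 0.05 by edgeR. In controls the desmosome genes Dsp and Perp rose from P11 to P29, Dsp from 15.1 ± 6.88 to 71.3 ± 14.4 CPM (log2 change 2.16, adjusted p = 8.68e-16).

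Gja1 encodes connexin 43, the gap junction protein of RPE, and was the 1 of 5 gap junction genes called between genotypes. Of all genes tested, 3.67% were called lower at P11 and 0.48% at 3M. Gja1 fell in mutants at P11 from 499 ± 92.6 to 307 ± 12.3 CPM (log2 fold change -0.70, SE 0.09, edgeR adjusted p = 2.11e-08) and at 3M from 255 ± 18.4 to 168 ± 9.91 CPM (-0.60, adjusted p = 3.11e-06). At P29 edgeR, DESeq2 and voom called 0 of the 5, with 1 at an unadjusted p under 0.05 by edgeR, and the genotype effect on Gja1 differed between P29 and P11 by 0.49 (edgeR adjusted p = 0.0214). Gja1 is also the connexin of astrocytes, and at P11 4 of 9 Mueller glia and astrocyte markers were called lower, among them Gfap (63.1 CPM in controls, 7.96 in mutants) and Vim (log2 fold change -0.60). Their sums were 8368 to 8681 CPM in P11 controls and 7585 to 8048 in mutants, with all 9 at a count. Apoe and Clu, at means of 5506 and 5324 CPM over the 24 libraries, weigh most in those sums. Rlbp1 is also in the list of RPE markers. The part of glial transcripts in the Gja1 result, and that of the endothelial markers given above, was not tested. Of 20 genes of the actin and myosin belt 3 fell at P11, where 3.67% of all genes were called lower. They were Myl12a (-0.61), Myh9 (-0.69) and Myh14 (-0.54), the last losing its call without control P11 replicate 3 or mutant P11 replicate 4. Pericyte and smooth muscle markers (9 of 9 with counts) summed to 348 to 388 CPM in P11 controls and 172 to 220 in mutants, with 4 of 8 tested called lower, among them Acta2 (110.3 against 63.6 CPM) and Rgs5 (176 against 89.7 CPM). Their part in the myosin results was not tested. At 3M 1 rose, the myosin light chain kinase Mylk (0.95, SE 0.19, edgeR adjusted p = 0.000248). At P29 edgeR, DESeq2 and voom called 0 of the 20, with 1 at an unadjusted p under 0.05 by edgeR.

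Of 12 transcription factors tested from the list for junction genes, 3 fell at P11, 2 fell at P29 and 2 rose at 3M. In either direction 6.93%, 2.84% and 2.61% of all genes were called. Klf4, a factor of epithelial barriers, was lower at P11 (-0.997, SE 0.15, edgeR adjusted p = 2.96e-07) and P29 (-0.76, SE 0.12, adjusted p = 4.14e-06) and higher at 3M (0.97, SE 0.13, adjusted p = 2.37e-08). Its means in controls and mutants were 81.6 and 40.5 CPM at P11, 288 and 170.5 at P29, and 74.5 and 147 at 3M. The genotype effect on Klf4 differed between 3M and P29 by 1.73 (SE 0.18, edgeR adjusted p = 8.41e-12). Mitf, the master factor of pigment cells, fell at P11 (-0.56, adjusted p = 0.000911), and Sox9 fell at P29 (-0.39, adjusted p = 5.87e-05). Sox9 at P11 (-0.27) lost its call without control replicate 2 or mutant replicate 3, and Pax6 at 3M (1.21) without control replicate 1, 2 or 4 or mutant replicate 1 or 3.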

How the data were processed

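Reads from a 3′ tag kit (QuantSeq), single-end, were used by the authors to make the deposited table of whole-number counts per Ensembl gene for each of 24 libraries; STAR and build mm10 are named per the submitters' processing notes, and no source used here names the counter or its strand setting. The 5 special entries, such as reads outside genes (18.6% to 27.5%), stayed out of library sizes. Symbols were matched for 30934 identifiers and not for 119. Depth was 1513440 to 2889946 counts per library; floors and intervals cover counting error only.

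The counts were fitted with edgeR 4.0.16 (R 4.3.3): TMM factors, filterByExpr on the 6 groups (12303 genes kept), robust quasi-likelihood fits over all 24 libraries with 1 mean per group, and Benjamini-Hochberg adjustment over all genes tested, for 9 comparisons. Standard errors came from the fold change and its F statistic, and 95% intervals from the normal distribution. Alternatives were DESeq2 1.42.0 and its median-of-ratios size factors, voom with quality weights (limma 3.58.1), no filter on low counts, a filter of 5 CPM in 4 libraries, the replicate number as a block, only the 8 libraries compared, and each library left out. Scaling to RPE marker counts was added after seeing the data.

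The members and gene lists were chosen with earlier results of these data known. Named were all members, in each other list up to 4 called genes of smallest p per genotype comparison and up to 3 per age comparison in controls, and the 3 genes most like each member of at least 10 CPM that varied by at least 1 log2 unit. Not every age-comparison gene the rule allows is described, and 1 gene called lower at all 3 ages is not reported here. Simulated counts held 200 changed genes, all drawn from genes with a mean above 5 CPM, so the rates do not cover scarcer genes such as Cdh1. Every other simulated gene had 1 level in all 6 groups, unlike the data, so the rates need not hold for the tests above. In the simulated counts 2-fold changes were recovered in 52.2% of cases at P11 (11873 genes), 58.2% at P29 (11868) and 49.3% at 3M (11877). Changes of 1.5-fold were recovered in 19.4%, 23.9% and 17.9%.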

Additional observations from a re-analysis of the deposited data

Results flagged for a closer look

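In 58 groups of 4 libraries checked over the 10 genes, 7 held a library whose distance to the nearest other exceeded Dixon's 95% critical share of the group's range. Chance alone flags about 1 in 20 groups. Cldn2 in P29 control replicate 4 was at 82.7 CPM, with the other 3 at 68.5 to 70.1. Cldn10 in P11 control replicate 2 was at 6.02 CPM (others 12.7 to 13.8), and in P29 mutant replicate 2 at 24.0 CPM (others 7.84 to 9.01). Cldn19 in P11 control replicate 1 was at 1.67 CPM, which is 5 counts, with the other 3 libraries at 0. Cdh1 in P29 control replicate 2 was at 9.56 CPM (others 1.84 to 2.50). Cdh2 in P29 mutant replicate 1 was at 8.76 CPM (others 17.1 to 18.03), and Tjp1 in the same library at 33.7 CPM (others 25.1 to 26).

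The genotype effect on Cdh3 differed between P29 and P11 by 1.13 on the log2 scale (edgeR adjusted p = 0.00316), from -1.04 at P11 to 0.09 at P29.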

How the results depend on the processing

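Of the member values recomputed under the alternatives, 1252 kept direction and side of the threshold, 57 changed sign, 19 lost a call and 2 gained one. Cldn1 and Cdh3 at P11, Cldn1 at 3M and the change of the Cdh3 effect between P11 and P29 kept their calls in each alternative run. With voom 563 genes passed at P11 (294 higher, 269 lower, against 401 and 452 by edgeR) and 168 for the change of effect between P29 and 3M, and at 3M the split was 203 higher and 107 lower (231 and 158 with only the 8 libraries) against 262 and 59. Cldn2 at P11 was -0.0735 and Cldn10 from P11 to P29 in mutants -0.0325 with voom, and 1 member was called from P29 to 3M in controls. With only the 8 libraries 2 members were called at 3M. Scaling to RPE marker counts gave a median log2 fold change over all genes of 0.11 at P11, 0.18 at P29 and 0.04 at 3M. Without it the medians were -0.0016, -0.0007 and 0.03. It gave 574 genes and 0 members at P29, with Cldn1 at -0.16, Cldn10 at 0.0805 and Tjp1 at 0.0404 at P11, and Tjp1 at 0.0869 at P29. Higher and lower calls then numbered 766 and 273 at P11, 534 and 40 at P29, and 275 and 48 at 3M. The cause of these differences was not tested.

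Libraries with the same number did not deviate together (correlations -0.02 to 0.031, and 2 of 12 numbers matched best with their own). No pairing by number was detected, though low correlations cannot show that there was none. The replicate block gave 833, 344 and 319 genes at P11, P29 and 3M, 1 member called from P29 to 3M in controls (Cdh1 lost at -2.70), Cldn2 at -0.0045 at P11 and a change of the Ocln effect between P11 and P29 of 0.0313.

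With 1 library left out, members called ranged from 0 to 1 at P29 and from 1 to 2 from P29 to 3M in either genotype, and Cldn1 at P29 from -0.39 to -0.25. Ranges that crossed 0 at P11 were -0.15 to 0.21 for Cldn2, -0.23 to 0.18 for Cldn10, -1.11 to 0.0318 for Cdh1 and -0.27 to 0.13 for Tjp1. At P29 they were -0.81 to 0.12 for Cldn10, -0.59 to 0.94 for Cdh1 and -0.0158 to 0.25 for Cdh3, and at 3M -0.19 to 0.17 for Cdh2. From P29 to 3M in controls they were -0.16 to 0.49 for Cldn10, -0.23 to 0.0841 for Cdh3 and -0.52 to 0.24 for Ocln, and in mutants -0.15 to 0.13 for Cdh2. From P11 to P29 in mutants they were -0.37 to 0.34 for Cldn10 and -0.89 to 0.54 for Cdh1. For the change of effect between P11 and P29 they were -0.78 to 0.15 for Cldn10, -0.21 to 1.33 for Cdh1, -0.22 to 0.18 for Tjp1 and -0.65 to 0.49 for Ocln, and between P29 and 3M -0.0065 to 1.13 for Ocln. Cdh2 gained a call from P29 to 3M in controls without control 3M replicate 2 (0.95, edgeR adjusted p = 0.0465). Depth limits Cdh1, Cldn19 and Ocln most, with means under 10 CPM.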
